A study of Mus musculus with 14 samples.

Results

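The 10 genes described here were picked from 24015 gene rows of a mouse RNA-seq count table for a high level in epiblast stem cells (EpiSC) and a large fall in the other groups of cells. They are Trh, Htr7, Npbwr1, Kcnj3, Ano5, Car2, Actc1, Jakmip2, Shisa3 and Vrtn. Because the EpiSC level and its loss were the grounds of the choice, every value of the 10 genes set against EpiSC is a description of that choice and carries no test. The tests of the 10 compare the other groups among themselves; a low level in those groups was itself part of the choice, so neither the counts of genes called nor the shared direction support anything about the 10 as a set. Tests against EpiSC are given for genes outside the 10 only.

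The study compared 14 libraries, 2 for each of 7 groups, which its design text calls biological duplicates. Embryonic stem cells (ESC, genotype CD1/JF1) had been cultured with leukemia inhibitory factor (LIF) in GMEM with serum replacement and feeder cells, and EpiSC (CD1/JF1) with bFGF in Knockout DMEM. MM401, which blocks the histone-methylating enzyme Mll1 encoded by Kmt2a, was given to EpiSC at 100 µM in LIF medium for 3 days (MM401 day 3) or for 6 days, to passage 2 (MM401 P2, CD1/JF1). Converted lines (rES) were sampled at passage 6 and passage 30 with 25 µM MM401, its dose after passage 3, and at passage 30 without MM401. The rES carried the genotype CD1-deltaTSIX/JF1 and grew in Knockout DMEM with LIF. In comparisons of rES with ESC, EpiSC or MM401-treated cells, cell state therefore cannot be told apart from line, nor from medium where that differed. MM401 and the change to LIF medium came at the same time, so their parts cannot be told apart either. In bulk RNA, fewer cells with a transcript and less of it per cell cannot be told apart.

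Mouse pluripotent cells exist in a naive state, represented by ESC and close to the early blastocyst, and in a primed state, represented by EpiSC and close to the epiblast after implantation. LIF signalling through Stat3 sustains the naive state, whereas FGF and activin signalling sustain the primed one. Primed cells lie nearer to lineage commitment and show low expression of many regulators of neural, mesodermal and endocrine lineages, and the 10 genes come from such varied settings: a hormone precursor, receptors, channels, an enzyme, a cytoskeletal protein and regulators of early development.

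Libraries held 20831588 to 23677089 counts, except for the deeper MM401 day 3 (113221270 and 116086115) and MM401 P2 libraries (74952496 and 80383376). Levels are given as CPM, the reads of a gene as a share of a library's TMM-scaled total, multiplied up in the usual way. Sums of state markers set EpiSC apart: 8 naive genes such as Klf4 and Tbx3 summed to 565 and 547 CPM in EpiSC and to 2206 CPM or more in every other library, and 8 primed genes such as Dnmt3b and Grb10 to 1807 and 1805 CPM in EpiSC and at most 843 CPM elsewhere. Single primed genes departed from the sum: in ESC against EpiSC 2 of the 8 were higher and 5 lower (74.5% of all genes tested called), with Fgf5 at 7.61 CPM in EpiSC and 21.1 CPM in ESC and Otx2 at 31.6 and 111 CPM. Feeder fibroblast markers (10 genes such as Col1a1 and Postn) were present in every group, from 2619 CPM in rES without MM401 to 17450 CPM in MM401 P2, and none of the 10 was at 0 counts. Fn1 made up most of the sum in rES without MM401 (1713 CPM) but not in MM401 P2 (3331 CPM).

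Of the 10 genes, 9 had their highest mean level in EpiSC. The exception was Trh, which was higher in ESC, so the label EpiSC-specific does not hold for it. How far a gene stood out was given by the EpiSC level over the highest level of any other group, with 0.1 CPM added to both, ranked over the 11363 genes of at least 5 CPM in EpiSC. By this measure Htr7 was the second of all genes with a ratio of 110, Kcnj3 ranked 3 with 79.3, Jakmip2 ranked 5, Shisa3 ranked 7, Ano5 ranked 14 and Actc1 ranked 27. Vrtn ranked 171 with a ratio of 3.59 and Car2 ranked 206 with 3.16, while Trh stood at 0.676 and rank 6820. Npbwr1 stayed under 5 CPM and was not ranked. Genes of the same standing that are not among the 10 included the olfactory receptor gene Olfr293 at rank 1 with a ratio of 111, Folr4 at rank 4 and the tight-junction gene Cldn11 at rank 6.

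**Figure D1:**
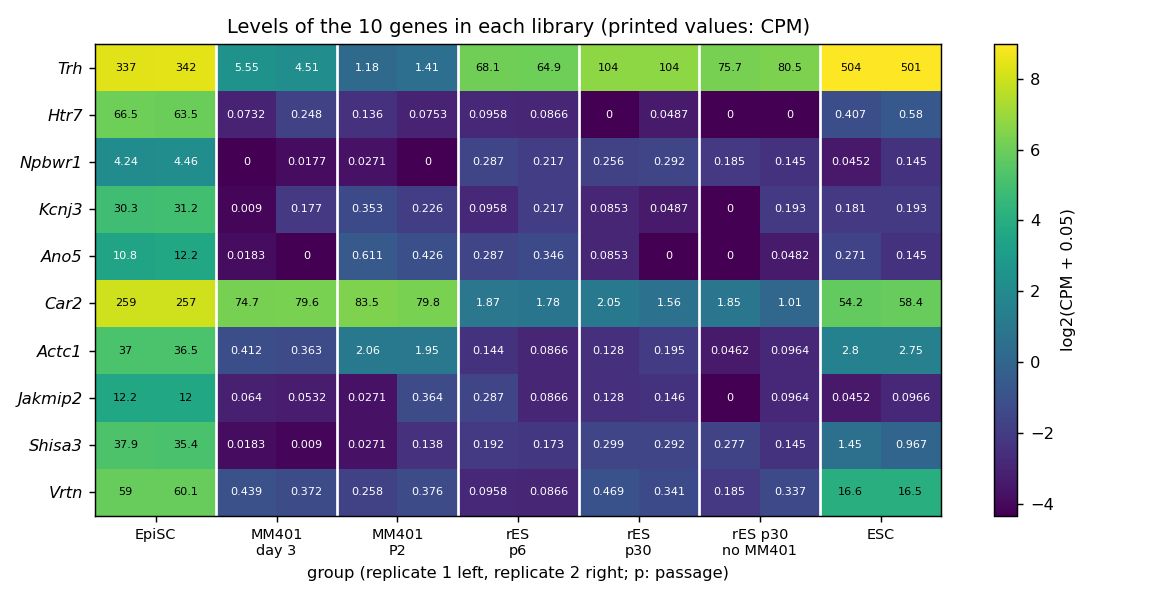
Level of each of the 10 genes (rows) in each of the 14 libraries (columns, replicate 1 left and replicate 2 right of a group); numbers are CPM and the colour is log2(CPM + 0.05). EpiSC hold the highest level for 9 genes, Trh is highest in ESC at 504 and 501 CPM, and Car2 stays at 74.7 to 83.5 CPM in MM401 day 3 and P2.

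Per kilobase of the longest coding GENCODE transcript, on which levels can be compared between genes, the 10 spread over a wide range in EpiSC. Trh led with 245 CPM per kb, followed by Car2 with 144, Actc1 with 24.9, Htr7 with 21.1 and Vrtn with 17.3. Shisa3 had 9.75 CPM per kb, Kcnj3 5.90, Jakmip2 3.44, Ano5 1.48 and Npbwr1 1.18. No window of 50 bases of such a transcript occurred in a transcript of another gene, including the actin relatives of Actc1. All 10 genes passed the filter on low counts, but Htr7, Npbwr1, Kcnj3, Jakmip2 and Ano5 did so only through EpiSC, so for them comparisons among the other groups rest on few reads and would not have been tested without the EpiSC libraries.

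The promoters of 3 genes are shown because they differ in kind among genes that share a loss from EpiSC to the treated cells. Trh was higher in rES than in the treated cells, and Htr7 and Actc1 were not. Each window runs from 250 bases before to 50 after the RefSeq start (build GRCm38.p6), printed on the strand of the gene, with capitals marking motif matches on either strand. The Trh window lies at chr6:92244601-92244900, minus strand, and holds CTTTGT, the core bound by SOX factors, and CAGAC, the core bound by SMAD factors. The Htr7 window lies at chr19:36057311-36057610, minus strand, and holds the reverse complement of CAGAC. The Actc1 window lies at chr2:114052826-114053125, minus strand, and holds the letters TATAAA, downstream of the start, whereas a TATA box lies upstream of one. It also holds, on the other strand, the CCAAT box and the SMAD core CAGAC.
Trh: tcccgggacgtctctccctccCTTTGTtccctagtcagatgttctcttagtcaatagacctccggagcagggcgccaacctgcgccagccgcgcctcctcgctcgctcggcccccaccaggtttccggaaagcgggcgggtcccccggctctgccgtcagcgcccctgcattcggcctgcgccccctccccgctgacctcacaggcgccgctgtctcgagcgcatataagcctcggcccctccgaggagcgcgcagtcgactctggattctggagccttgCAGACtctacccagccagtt
Htr7: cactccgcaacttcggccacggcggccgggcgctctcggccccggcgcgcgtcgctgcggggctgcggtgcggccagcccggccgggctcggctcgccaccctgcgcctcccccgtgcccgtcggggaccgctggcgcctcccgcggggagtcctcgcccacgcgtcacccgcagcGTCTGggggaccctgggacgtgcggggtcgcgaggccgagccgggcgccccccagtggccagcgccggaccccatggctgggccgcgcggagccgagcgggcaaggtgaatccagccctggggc
Actc1: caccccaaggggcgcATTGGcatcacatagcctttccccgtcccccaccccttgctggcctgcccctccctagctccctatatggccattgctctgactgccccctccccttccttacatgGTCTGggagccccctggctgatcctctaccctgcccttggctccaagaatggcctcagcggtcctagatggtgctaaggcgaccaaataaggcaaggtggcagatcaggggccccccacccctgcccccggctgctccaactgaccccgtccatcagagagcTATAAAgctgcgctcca

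Promoter windows of 7 of the 10 genes were described. Windows on chromosome 18, where Jakmip2 lies, were left out of the description, and Car2 and Npbwr1 had none. The Htr7 window was 81.0% G and C with a CpG observed-over-expected ratio of 0.94, and the Trh window 67.0% with 0.88. The Actc1 window had a ratio of 0.26 at 62.7% G and C, against medians of 0.71 and 60.0% over the 15116 promoters of genes that passed the filter. Of the motifs searched on both strands, CAGAC was in windows of 5 of the 7 genes and in 49.6% of all 32851 promoters. The CCAAT box was in those of 4 genes and in 37.4% of all promoters. A gene counted if any of its windows held the motif, and Vrtn had more than 1 window, whereas the shares are over single promoters. The letters TATAAA were in 1 gene, against 13.6%, and the SOX core CTTTGT in 1, against 18.7%. No window of the 7 held the TCF and LEF core CTTTGA (16.0% of all promoters), the octamer ATGCAAAT (1.74%) or the FOXH1 motif TGTGGATT (0.855%). None of these motifs contains another. A match is a description of these letters only.

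Trh encodes the precursor of thyrotropin-releasing hormone, a tripeptide known from the hypothalamus. In EpiSC it was the most abundant of the 10 genes per kb. EpiSC held 337 and 342 CPM, MM401 day 3 held 5.55 and 4.51 CPM, and MM401 P2 held 1.18 and 1.41 CPM. The level was 68.1 and 64.9 CPM in rES at passage 6, 104 and 104 CPM at passage 30, 75.7 and 80.5 CPM at passage 30 without MM401, and 504 and 501 CPM in ESC. The treated cells were the lowest, the rES intermediate and ESC the highest, and no groups overlapped. Its level in rES was 19.6% to 30.7% of that in EpiSC, against at most 6.30% for any of the other 9 genes. It fell from MM401 day 3 to P2 by 1.95 on the log2 scale (SE 0.11, adjusted p = 1.97e-19) and was 51.2-fold higher in rES passage 6 than in MM401 P2 (log2 5.68, SE 0.08, adjusted p = 1.13e-38). It was higher at passage 30 than at passage 6 by 0.65 (SE 0.05, adjusted p = 5.96e-13). Without MM401 it was lower than with it, by -0.42 (SE 0.05, adjusted p = 1.19e-07), although at 23.0% of the EpiSC level it remained far above the treated EpiSC. Against ESC, rES passage 30 was 4.82-fold lower (log2 -2.27, SE 0.05, adjusted p = 5.44e-33) and MM401 P2 388-fold lower (log2 -8.60, SE 0.07, adjusted p = 1.53e-46).

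Of the enzymes that process the TRH precursor, Cpe, Pam and Qpct took other courses than Trh. Pcsk1, which cuts it, was like Trh lowest in MM401 P2. Its level was 2.89 CPM in EpiSC, 0.979 CPM in MM401 P2, 2.53 CPM in rES passage 30 and 2.90 CPM in ESC. Pcsk2 measured 0.452 CPM in EpiSC, 0.170 CPM in MM401 P2, 0.110 CPM in rES passage 30 and 1.17 CPM in ESC. Of the 8 other genes of the list (processing enzymes, receptors and a degrading enzyme), 5 passed the filter. In MM401 day 3 against EpiSC 1 of the 5 rose and 4 fell, and in rES passage 30 against EpiSC 1 rose and 3 fell, where 76.6% and 76.3% of all genes tested were called. Cpe, which trims basic residues, measured 106 CPM in EpiSC, 74.3 CPM in MM401 day 3, 249 CPM in MM401 P2 and 73.9 CPM in rES passage 30. Pam, which amidates the peptide, measured 57.3, 38.0, 91.1 and 17.5 CPM in the same groups. Qpct, which cyclizes an N-terminal glutamine, was higher in rES passage 30 than in EpiSC by 1.38 on the log2 scale (SE 0.14, adjusted p = 9.45e-12).

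Htr7 encodes a serotonin receptor that couples to Gs and raises cAMP. EpiSC libraries had 1630 and 1538 reads of it (66.5 and 63.5 CPM). MM401 day 3 had 8 and 28 reads, MM401 P2 10 and 6, rES passage 6 2 and 2, rES passage 30 0 and 1, rES without MM401 0 and 0, and ESC 9 and 12. EpiSC stood alone, and every other library was under 0.6 CPM. Htr7 was tested only because of its EpiSC level, and the calls that follow rest on at most 36 reads in a group. It was called lower than in ESC in all 5 groups derived from EpiSC: by -1.58 (SE 0.47, adjusted p = 0.00311) in MM401 day 3, by -2.20 (SE 0.54, adjusted p = 0.000378) in MM401 P2 and by -2.39 (SE 0.74, adjusted p = 0.00431) in rES passage 6. In rES passage 30 the 1 read gave a ratio to ESC of 0.0464 with a 95% counting interval of 0.00112 to 0.288 (adjusted p = 0.000239). With 0 reads in rES without MM401, the level was at least 6.93-fold lower than in ESC, taking 3 reads over the group as the floor (adjusted p = 5.02e-05). The MM401 day 3 call was lost without ESC replicate 2, at -1.31, and the value was -0.97 without MM401 day 3 replicate 1. It was also lost on counts thinned to the shallowest library, at -1.12. Of the 7 other serotonin receptor genes that passed the filter, 1 rose and none fell in rES passage 30 against EpiSC, where 76.3% of all genes were called: Htr6, from 0.103 to 1.65 CPM (log2 3.98, SE 0.63, adjusted p = 4.47e-07).

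Npbwr1 encodes a receptor for the neuropeptides B and W and was the faintest member. EpiSC had 104 and 108 reads (4.24 and 4.46 CPM). There were 0 and 2 reads in MM401 day 3 and 2 and 0 in MM401 P2, although these are the deepest libraries, and 6 and 5 reads in rES passage 6. At passage 30 there were 6 and 6 reads, without MM401 4 and 3, and in ESC 1 and 3. The rES libraries lay between the treated cells and EpiSC, at 0.145 to 0.292 CPM. Like Htr7, it was tested only because of its EpiSC level. The call of a higher level in rES passage 6 than in MM401 P2 rests on 11 against 2 reads: the ratio was 19.2 with a counting interval of 4.19 to 178 (log2 3.99, SE 0.97, adjusted p = 0.000388), 6.35 without MM401 P2 replicate 1 and 3.06 without replicate 2 on the log2 scale. It was lower in MM401 day 3 than in ESC (2 against 4 reads, ratio 0.0963, interval 0.00871 to 0.672, adjusted p = 0.029), a call lost without MM401 day 3 replicate 1 (log2 -2.20) or ESC replicate 2 (-2.02), or on thinned counts (-0.91). Against ESC the values in rES were 1.39 (SE 0.92, adjusted p = 0.176) at passage 6 and 1.52 (SE 0.90, adjusted p = 0.13) at passage 30, not detectable as a difference at this depth. Of the peptide genes, Npw was lower in rES passage 30 than in EpiSC by -3.37 (SE 0.75, adjusted p = 0.000109), and Npb measured 0.719 and 0.359 CPM in these groups (adjusted p = 0.0873).

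Kcnj3 encodes Girk1, a potassium channel subunit opened by G proteins. EpiSC had 742 and 757 reads (30.3 and 31.2 CPM), MM401 day 3 had 1 and 20, and MM401 P2 had 26 and 18. The rES had 2 and 5 reads at passage 6, 2 and 1 at passage 30 and 0 and 4 without MM401, and ESC had 4 and 4. All libraries but the EpiSC were at most 0.353 CPM, and Kcnj3 too was tested only because of EpiSC. It was called higher in MM401 P2 than in day 3 (log2 1.58, SE 0.55, adjusted p = 0.0137), but the day 3 libraries differed widely, and the value was 0.68 and not called without day 3 replicate 1, 4.54 without day 3 replicate 2, and 1.23 and not called without P2 replicate 1. In the other 8 tested comparisons it was not called. Among 9 other inward rectifier genes tested, 2 were higher and 3 lower in rES passage 30 than in EpiSC, against 76.3% of all genes called. Kcnj12 rose from 1.89 to 16.7 CPM (log2 3.15, SE 0.16, adjusted p = 1.96e-20), whereas Kcnj9, another Girk subunit, was lower in rES passage 30 by -2.83 (SE 0.72, adjusted p = 0.000569) and in MM401 day 3 by -4.84 (SE 0.65, adjusted p = 1.32e-08). Outside EpiSC, Kcnj9 was at most 0.452 CPM, near the filter's cutoff of 0.445 CPM, so its calls lean on its EpiSC level.

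Ano5 encodes an anoctamin, a membrane protein of the TMEM16 family linked to muscle disease. EpiSC had 266 and 295 reads (10.8 and 12.2 CPM). MM401 day 3 had 2 and 0 reads, MM401 P2 45 and 34, rES passage 6 6 and 8, rES passage 30 2 and 0, rES without MM401 0 and 1, and ESC 6 and 3. The MM401 P2 libraries stood above both day 3 and ESC, without overlap, yet at 4.50% of the EpiSC mean. Ano5 was tested only because of its EpiSC level. It was called higher in MM401 P2, with 79 reads, than in day 3, with 2: the ratio was 57.2 with a counting interval of 15.3 to 481 (log2 5.44, SE 0.60, adjusted p = 1.49e-10), 7.29 without day 3 replicate 1 and 4.58 without day 3 replicate 2 on the log2 scale. It was lower in MM401 day 3 than in ESC (ratio 0.0428, interval 0.00450 to 0.207, adjusted p = 0.000172). The calls of a rise in MM401 P2 over ESC (log2 1.29, SE 0.53, adjusted p = 0.0282), of a fall from rES passage 6 to passage 30 (ratio 0.143, interval 0.0158 to 0.622, adjusted p = 0.0292) and of a lower level in rES without MM401 than in ESC (ratio 0.112, interval 0.00256 to 0.809, adjusted p = 0.0267) each rested on single libraries. The first was lost without P2 replicate 1 (1.01) or ESC replicate 2 (0.92). The second was lost without passage 6 replicate 1 (-2.86) or replicate 2 (-2.59) or passage 30 replicate 2 (-1.86). The last was lost without the replicate 1 of the rES without MM401 (-2.06) or of ESC (-2.48). Other anoctamins took other courses: of 8 tested, 2 were higher and 5 lower in rES passage 30 than in EpiSC (76.3% of all genes called), among them Ano9 at 47.0 against 15.9 CPM (log2 1.56, SE 0.08, adjusted p = 4.48e-21) and Ano3 at 3.27 against 20.8 CPM (log2 -2.65, SE 0.14, adjusted p = 4.6e-20).

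Car2 encodes carbonic anhydrase 2, a cytosolic enzyme that interconverts carbon dioxide and bicarbonate. EpiSC held 259 and 257 CPM, MM401 day 3 held 74.7 and 79.6 CPM, and MM401 P2 held 83.5 and 79.8 CPM. The rES held 1.87 and 1.78 CPM at passage 6, 2.05 and 1.56 CPM at passage 30, and 1.85 and 1.01 CPM without MM401, and ESC held 54.2 and 58.4 CPM. Car2 stayed highest of the 10 relative to EpiSC in the treated cells: it had 29.9% of its EpiSC level at day 3 and 31.7% at P2, where the other 9 genes had at most 5.45%. From day 3 to P2 the value was 0.08 (SE 0.05, adjusted p = 0.127), and it was called, at 0.11, when libraries were scaled to total counts. It was higher than in ESC at both times, by 0.46 (SE 0.06, adjusted p = 1.36e-09) and 0.54 (SE 0.06, adjusted p = 2.28e-11). In rES passage 6 it was 44.9-fold lower than in MM401 P2 (log2 -5.49, SE 0.10, adjusted p = 2.86e-35). Passage 6 and passage 30 both had 80 reads in all, and both were 30.9-fold lower than ESC (log2 -4.95, SE 0.11, adjusted p = 7.88e-32 and 5.31e-32). Without MM401 the value was -0.34 (SE 0.25, adjusted p = 0.389), and 0.02 without replicate 2 of the cells without MM401.

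Other carbonic anhydrases went both ways. Of 13 tested, 4 were higher and 6 lower in rES passage 30 than in EpiSC, where 76.3% of all genes were called, and 7 were higher and 4 lower in ESC (74.5%). Car14, a membrane form, went from 21.0 CPM in EpiSC to 0.378 CPM in MM401 day 3 (log2 -5.78, SE 0.20, adjusted p = 5.39e-26). Car4 and Car9, also membrane forms, were higher in ESC than in EpiSC (log2 1.63, SE 0.11, and 2.21, SE 0.14) but lower in rES passage 30 (-2.20, SE 0.15, and -1.25, SE 0.19). Car8, which lacks the catalytic activity of the family, rose in rES passage 30 (2.33, SE 0.19, adjusted p = 5.06e-14).

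Actc1 encodes alpha-cardiac actin, a marker of early heart and skeletal muscle. EpiSC held 37.0 and 36.5 CPM, MM401 day 3 held 0.412 and 0.363 CPM, MM401 P2 held 2.06 and 1.95 CPM, and ESC held 2.80 and 2.75 CPM. The rES had 3 and 2 reads at passage 6, 3 and 4 at passage 30 and 1 and 2 without MM401. The order was thus EpiSC, ESC, MM401 P2, MM401 day 3 and then the rES, among which passage 6 overlapped with both other groups. Actc1 rose from MM401 day 3 to P2 by 2.36 (SE 0.18, adjusted p = 9.85e-15) and was lower in rES passage 6 than in MM401 P2 by -4.10 (SE 0.38, adjusted p = 1.76e-12). Against ESC it was lower by -2.84 (SE 0.22, adjusted p = 6.87e-15) in MM401 day 3, -4.58 (SE 0.39, adjusted p = 2.68e-13) in rES passage 6 and -4.10 (SE 0.37, adjusted p = 6.84e-13) in rES passage 30. Without MM401, 3 reads gave a ratio to ESC of 0.0255 (interval 0.00518 to 0.0762, adjusted p = 9.13e-14). In MM401 P2 the difference from ESC was -0.47 (SE 0.18, adjusted p = 0.0174) and was lost without P2 replicate 2 (-0.43), ESC replicate 1 (-0.46) or ESC replicate 2 (-0.48).

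The rise of Actc1 in MM401 P2 came with rises of other actins and of fibroblast markers. Of 5 other actin genes, 3 rose from day 3 to P2 and none fell, where 70.8% of all genes were called and 37.5% rose. The smooth-muscle gene Acta2, itself on the feeder list, measured 462 CPM at day 3 and 1083 CPM at P2. All 10 feeder markers rose between these times, from 6679 and 6725 to 16910 and 17450 CPM in sum, and their part in the result was not tested. The 16 cardiac and skeletal muscle markers did not follow: 5 rose and 2 fell from day 3 to P2, and in rES passage 30 against EpiSC 6 rose and 6 fell (76.3% of all genes called). In rES passage 30 the muscle genes Myl7 (0.370 to 5.60 CPM, log2 3.91, SE 0.31, adjusted p = 1.93e-14) and Myl4 (1.64 to 9.90 CPM, log2 2.60, SE 0.18, adjusted p = 1.09e-16) were higher than in EpiSC, opposite to Actc1. Other muscle genes were at a lower level there than in EpiSC, like Actc1, among them Myh7 (2.79 to 0.131 CPM) and Mef2c (4.78 to 0.499 CPM).

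**Figure D2:**
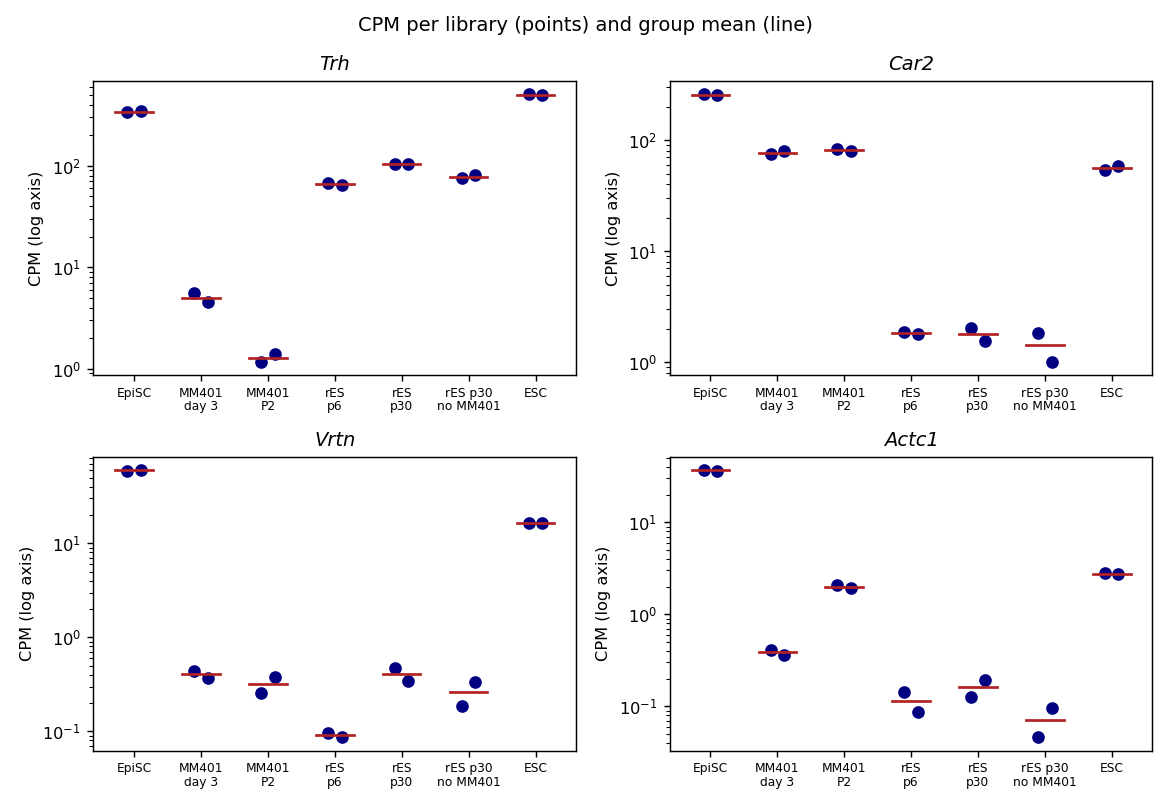
CPM (log axis) of Trh, Car2, Vrtn and Actc1 in each library (points) and the group mean (line), for 7 groups of 2 libraries. Trh is lowest in MM401 P2 at 1.18 and 1.41 CPM and is at 64.9 CPM or more in rES. Car2 is at 74.7 CPM or more in the treated EpiSC and at most 2.05 CPM in rES.

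Jakmip2 encodes a coiled-coil protein of a family named for binding Janus kinases and microtubules. EpiSC had 298 and 291 reads (12.2 and 12.0 CPM). MM401 day 3 had 7 and 6 reads, MM401 P2 2 and 29, rES passage 6 6 and 2, rES passage 30 3 and 3, rES without MM401 0 and 2, and ESC 1 and 2. Outside EpiSC no library exceeded 0.364 CPM, and Jakmip2 was tested only because of EpiSC. The call of a rise from MM401 day 3 to P2 (log2 1.73, SE 0.65, adjusted p = 0.021) rested on the 29 reads of P2 replicate 2: the groups overlapped, and without that library the value was -1.03. It was also lost without either day 3 library, at 1.85 and 1.60, and on thinned counts, at 1.66. Its relative Jakmip1 went the other way, from 5.58 CPM in EpiSC to 20.4 CPM in MM401 day 3 (log2 1.87, SE 0.11, adjusted p = 8.65e-19).

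Shisa3 encodes a protein of the endoplasmic reticulum known to hold back Wnt and FGF receptors. EpiSC had 930 and 857 reads (37.9 and 35.4 CPM). MM401 day 3 had 2 and 1 reads, MM401 P2 2 and 11, rES passage 6 4 and 4, rES passage 30 7 and 6, rES without MM401 6 and 3, and ESC 32 and 20. At day 3 it stood at 0.0370% of its EpiSC level, the lowest share of the 10 genes there. Against ESC it was lower in all 5 groups: in MM401 day 3 with a ratio of 0.0111 (interval 0.00222 to 0.0343, adjusted p = 8.13e-14), in MM401 P2 by -3.80 on the log2 scale (SE 0.41, adjusted p = 1.06e-10), in rES passage 6 by -2.72 (SE 0.48, adjusted p = 4.53e-06), in rES passage 30 by -2.03 (SE 0.43, adjusted p = 7e-05) and without MM401 by -2.50 (SE 0.47, adjusted p = 1.08e-05). Without P2 replicate 1 or 2 the MM401 P2 value was -3.11 or -5.33. The rise from MM401 day 3 to P2 (ratio 6.28, interval 1.73 to 34.3, adjusted p = 0.00498) was lost without P2 replicate 2, at 0.86, and was 3.08 without P2 replicate 1. On thinned counts it was 3.71 and not called. Removal of MM401 gave -0.47 (SE 0.65, adjusted p = 0.68). Of 5 relatives tested, Shisa6 shared the fall from EpiSC, from 10.7 to 0.483 CPM in MM401 day 3 (log2 -4.46, SE 0.25, adjusted p = 1.87e-19) and to 0.646 CPM in rES passage 30 (-4.02, SE 0.29, adjusted p = 1.36e-15). Shisa2 rose over the same comparisons, by 1.00 (SE 0.08, adjusted p = 2.65e-14) and 1.07 (SE 0.09, adjusted p = 5.72e-14).

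Vrtn encodes vertnin, known in pigs for variation in the number of thoracic vertebrae. EpiSC held 59.0 and 60.2 CPM and ESC 16.6 and 16.5 CPM. MM401 day 3 had 48 and 42 reads (0.439 and 0.372 CPM), MM401 P2 19 and 30, rES passage 6 2 and 2, rES passage 30 11 and 7, and rES without MM401 4 and 7. All 5 groups derived from EpiSC were under 0.5 CPM and far below ESC, which kept 27.8% of the EpiSC level. Against ESC the log2 difference was -5.34 (SE 0.15, adjusted p = 3.03e-29) in MM401 day 3, -5.68 (SE 0.16, adjusted p = 7.03e-29) in MM401 P2, -7.46 (SE 0.27, adjusted p = 5.61e-25) in rES passage 6 and -5.98 (SE 0.23, adjusted p = 1.99e-24) in rES without MM401. In rES passage 30 it was 40.4-fold lower than in ESC (log2 -5.33, SE 0.21, adjusted p = 4.26e-24). The calls of a fall from MM401 P2 to rES passage 6 (-1.78, SE 0.59, adjusted p = 0.00699) and of a rise from passage 6 to passage 30 (2.13, SE 0.66, adjusted p = 0.0129) rested on the 4 reads of passage 6. The fall was lost without P2 replicate 2 (-1.47) or passage 6 replicate 2 (-1.71), or on counts thinned to the shallowest library (-1.13, adjusted p = 0.195). The rise was lost without either passage 6 library (2.20 and 2.06) or passage 30 replicate 1 (1.88). Removal of MM401 gave -0.65 (SE 0.52, adjusted p = 0.445).

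The calls of the 10 genes between successive groups are given here as a description and not as a result about the set. The rES differ from MM401 P2 in genotype and MM401 dose, so that comparison is not a step of the same cells. From MM401 day 3 to P2, 5 were called higher (Actc1, Ano5, Shisa3, Kcnj3 and Jakmip2), 1 lower (Trh) and 4 neither. Ano5, Kcnj3 and Jakmip2 were tested only because of EpiSC; without the EpiSC libraries 5 of the 10 were tested, of which 2 were called higher and 1 lower. Of all genes tested 70.8% were called, 37.5% as higher and 33.3% as lower. From MM401 P2 to rES passage 6, Trh and Npbwr1 were called higher and Car2, Actc1 and Vrtn lower (without the EpiSC libraries 1 higher and 3 lower of 5 tested), where 73.0% of all genes were called, 35.5% as higher and 37.5% as lower. From rES passage 6 to 30, Trh and Vrtn were called higher, Ano5 lower and 7 neither (without the EpiSC libraries 2 higher and none lower of 5 tested), against 25.6% of all genes called, 11.3% as higher and 14.4% as lower. On removal of MM401 from passage 30 cells only Trh was called, against 19.7% of all genes (10.4% as higher and 9.30% as lower). In each of these comparisons some of the 10 rest on a handful of reads, so a difference of moderate size was not detectable at this depth.

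The question whether rES reached the level of ESC had a different answer from gene to gene. In rES passage 30 against ESC, 6 of the 10 genes were lower (Vrtn, Car2, Actc1, Htr7, Trh and Shisa3), none was higher and 4 were not called, where 71.1% of all genes were called, 35.3% as higher and 35.8% as lower. Without the EpiSC libraries 5 of the 10 were tested, and those 5 were lower; Htr7 was not tested. Since a low level in rES was part of the choice of the 10, this count is a description. Vrtn, Car2, Actc1, Htr7, Trh and Shisa3 were also lower in rES passage 6 than in ESC (69.3% of all genes called, 36.3% higher and 33.0% lower), and these 6 together with Ano5 in rES without MM401 (71.3%, 36.3% higher and 35.0% lower). In MM401 day 3 against ESC 1 gene was higher and 7 were lower (71.2% of all genes called, 35.6% higher and 35.6% lower), and in MM401 P2 2 were higher and 5 lower (74.7%, 41.0% higher and 33.6% lower). Wherever Htr7, Npbwr1 or Ano5 is among these calls against ESC, it was tested only because of EpiSC. These comparisons share the ESC libraries. The 8 primed markers were lower in rES passage 30 than in ESC in 8 of 8 cases as well. Feeder markers were also lower there, 9 of 10 called lower and 1 higher, with sums of 3382 and 3372 CPM against 10250 and 10220 CPM in ESC, and their part in the result was not tested. Fn1 made up most of these sums, with 2407 CPM in rES passage 30 and 6487 CPM in ESC.

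**Figure D3:**
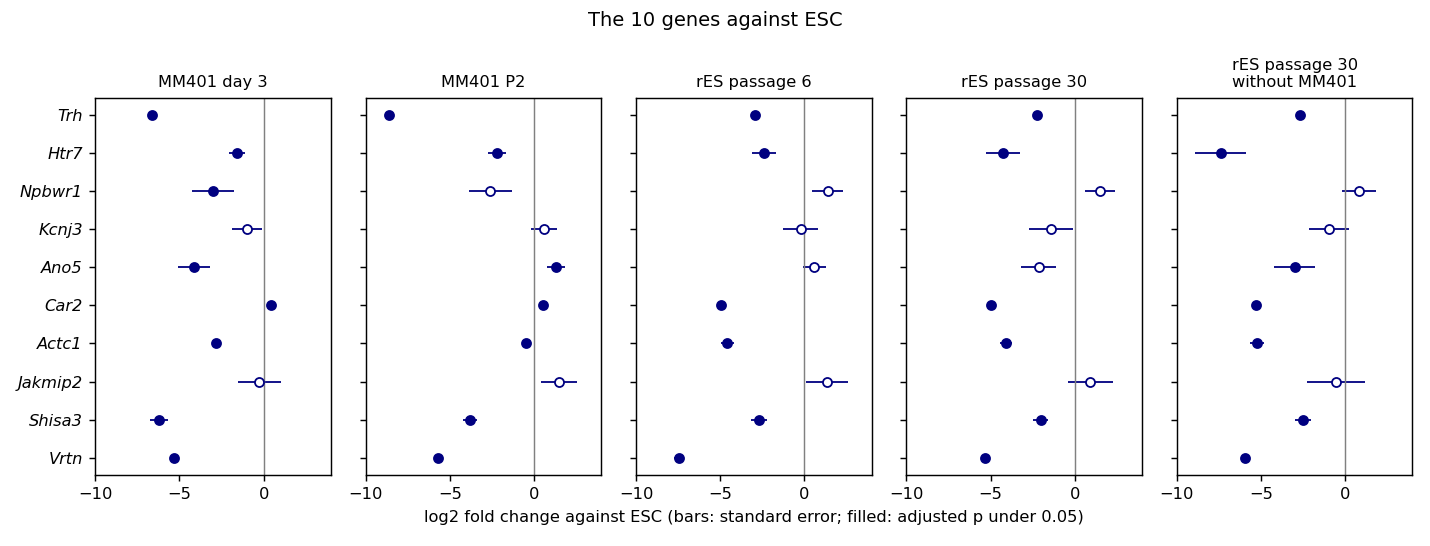
Log2 fold change of each of the 10 genes against ESC in 5 groups (points) with its standard error (bars); filled points had an adjusted p under 0.05. Vrtn, Trh and Shisa3 lie left of 0 in every panel, whereas Car2 lies right of 0 in MM401 day 3 (0.46) and P2 (0.54) and at -4.95 in both rES passages with MM401.

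Among the 8 genes whose course over the 14 libraries was most like the mean of the 10 (Pearson r of log2 CPM, a description over libraries that share groups and depth) were Pcdh1, a protocadherin (r = 0.994), Pctp, a phosphatidylcholine transfer protein (0.991), Bcl11b, a zinc-finger transcription factor (0.987), Ldoc1l (0.985), Plxnb1, a semaphorin receptor (0.984), Snn (0.983) and Fam57b (0.981). The 8 were taken from 11353 genes of at least 5 CPM in EpiSC, and the next gene had 0.981 too. Pcdh1 measured 65.2 CPM in EpiSC, 2.97 CPM in MM401 day 3, 3.86 CPM in rES passage 6 and 9.81 CPM in ESC. Single members had other partners. Trh was most like Clstn3 and Dok2, Car2 most like Ttc7 and Fscn1, Actc1 most like Wnt4 and Pkdcc, and Vrtn most like Pim2 and Insm1. Dok2 measured 13.1 CPM in EpiSC, 2.70 CPM in MM401 P2, 8.87 CPM in rES passage 30 and 17.2 CPM in ESC, the order seen for Trh. Among the members, r was 0.945 between Htr7 and Kcnj3 but -0.158 between Trh and Car2. A high r between members, or to their mean, follows in part from their choice for a high EpiSC level.

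Most markers of neurons and neuroendocrine cells, in which several of the 10 genes are best known, were called lower in ESC and in the cells derived from EpiSC than in EpiSC. Of 14 such markers, 2 were higher and 11 lower in MM401 day 3 than in EpiSC, and 1 higher and 10 lower in rES passage 30, where 76.6% and 76.3% of all genes were called. In ESC 3 were higher and 9 lower (74.5%). These shares count both directions and the share of all genes called lower is not given, so the counts of lower markers are a description. Gap43, a growth-cone protein, went from 53.3 CPM in EpiSC to 10.2 CPM in MM401 day 3 (log2 -2.39, SE 0.08, adjusted p = 2.17e-27) and 11.6 CPM in rES passage 30 (-2.20, SE 0.09, adjusted p = 6.35e-24), while Chga, a granin of secretory vesicles, rose in both (0.81, SE 0.10, adjusted p = 1.99e-09, and 0.88, SE 0.11, adjusted p = 4.45e-09). In sum these markers measured 639 and 646 CPM in EpiSC, 265 to 476 CPM in the groups derived from it and 419 and 421 CPM in ESC. Stmn2 made up most of these sums, with 474 CPM in EpiSC, 325 CPM in MM401 day 3 and 283 CPM in ESC. Tubb3 was higher in MM401 day 3 (86.3 CPM) and ESC (68.9 CPM) than in EpiSC (47.15 CPM).

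Genes next to the 10 on the chromosome went both ways. For each member the nearest tested gene on either side was taken from the RefSeq gene order of GRCm38.p6, which gave 20 neighbours. In rES passage 30 against EpiSC 7 of the 20 were higher and 7 lower, with a median log2 difference of -0.20. Car3, Oprk1, Nell1 and Mrps25 among them were lower than in EpiSC in all 6 other groups, Mrps25, beside Trh, by only -0.14 to -0.84, where 73.8% to 76.6% of all genes tested were called (75.9% in MM401 P2, 76.5% in rES without MM401). Car3, the neighbour of Car2 and a carbonic anhydrase of muscle, measured 8.57 and 8.46 CPM in EpiSC, 0.576 and 0.470 CPM in MM401 day 3, 0.171 and 0 CPM in rES passage 30 and 0.633 and 1.11 CPM in ESC. Car2 and Car3 thus both ended low in rES, but at day 3 Car3 was already lower by -4.02 (SE 0.27, adjusted p = 1.52e-16), at a time when Car2 stood at 29.9%. Oprk1, the opioid receptor gene beside Npbwr1, measured 1.38 CPM in EpiSC and was lower by -3.28 (SE 0.48, adjusted p = 1.1e-07) in MM401 day 3 and by -2.57 (SE 0.60, adjusted p = 0.000199) in rES passage 30. Outside EpiSC no library exceeded 0.380 CPM of Oprk1, under the filter's cutoff of 0.445 CPM, so it was tested only because of EpiSC. Nell1, beside Ano5, measured 2.75 CPM in EpiSC and was lower by -2.40 (SE 0.31, adjusted p = 8.36e-09) and -3.10 (SE 0.43, adjusted p = 2.57e-08) in the same groups. The strand setting of the counting is not known from the labels, so reads of overlapping genes on opposite strands could not be told apart.

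**Figure D4:**
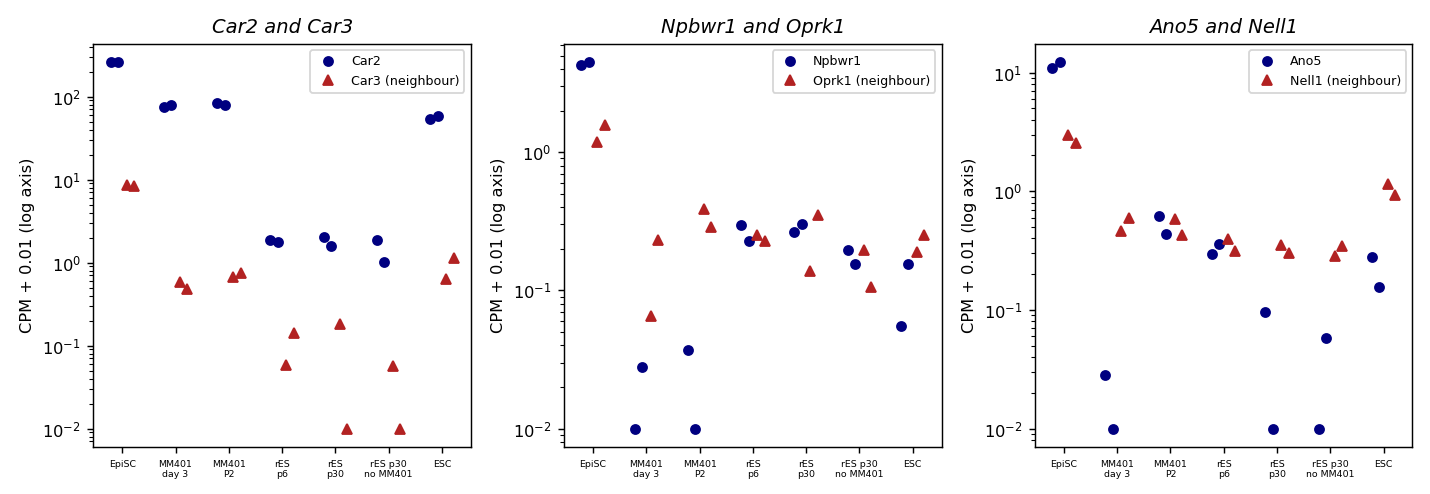
CPM + 0.01 (log axis) in each library of Car2, Npbwr1 and Ano5 (circles) and of a chromosomal neighbour of each (triangles: Car3, Oprk1 and Nell1), over 7 groups of 2 libraries. The 3 neighbours were picked from 20 after their values were seen, and all 3 are highest in EpiSC. Of the 20, 7 were higher and 7 lower in rES passage 30 than in EpiSC. Car3 is at 0.576 and 0.470 CPM in MM401 day 3, where Car2 is at 74.7 and 79.6 CPM.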

How the data were processed

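Gene expression was measured in 14 mouse libraries; per the labels' protocols, RNeasy RNA treated with DNase was made into TruSeq libraries and read from 1 end. The authors deposited raw read counts for 24015 gene rows. Per the submitters' processing notes, mm9 was the build and the tools were TopHat2, Subread and DESeq, without roles or versions. The strand and the handling of reads that map to several places are unknown. Besides these, 2 columns matched no sample and were not used, and 27 gene names had turned into dates (at most 0.254% of a library's counts). Genes passed filterByExpr at its minimum count of 10 (16247 genes) and were scaled with TMM. The test was edgeR 4.0.16's quasi-likelihood F test with robust estimation, in R 4.3.3, on all 14 libraries with a mean per group. A call is a Benjamini-Hochberg adjusted p under 0.05, two-sided, over all genes of a comparison; every adjusted p is from this test unless another tool is named. The standard error is the log2 fold change divided by the square root of F. Nothing in the labels says which cultures gave the duplicates, so p-values measure the spread between these libraries and need not cover that between cultures. Scatter within each pair of duplicates was scaled over 15060 genes so that random read sampling alone would give about 1. It was 1.28 in ESC, 1.37 in rES passage 6 and 1.56 in EpiSC. Higher values were 3.30 in rES without MM401, 8.19 in MM401 day 3, 9.79 in MM401 P2 and 17.4 in rES passage 30. Each value is a mean over genes, so a single row of many reads can weigh heavily on it. The ribosomal RNA row Rn45s was included and made up 0.548% and 2.00% of the counts of the rES passage 30 libraries. The 17.4 therefore need not describe most genes. What sets these values was not tested. Counting intervals are exact at 95% and, like the floor of 3 reads, cover counting error only. The pipeline was tested on simulated data.

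The members and lists were chosen with earlier results of these data known. Genes named are the 10 members, the 8 genes most like their mean and 2 most like each (r of log2 CPM, prior count 2), relatives of the members, and up to 4 called genes of a marker list; neighbours, genes of like standing in EpiSC and marker examples were picked after their values were seen. Alternatives were RLE factors, total counts, no filter, DESeq2 1.42.0, the 4 libraries compared alone, a replicate block, each library left out, counts thinned to the depth of the shallowest library, the ribosomal RNA row Rn45s left out, and fits without the deeper MM401 libraries. Fits without EpiSC were added after the data were seen. With total counts, log2 differences from EpiSC shift by -0.13 to -0.17 for every gene. One of the genes most like the members is not reported here.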

Additional observations from a re-analysis of the deposited data

How the results depend on the processing

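Of 49 calls among the 10 genes, 38 kept their direction and an adjusted p under 0.05 in every alternative in which the gene was tested, among them all 12 in rES passage 6 and passage 30 against ESC. The other 11 lost the call in at least 1 alternative, 10 of them on fewer than 50 reads in at least 1 of the groups. Htr7, Npbwr1, Kcnj3, Jakmip2 and Ano5 were not tested without the EpiSC libraries, so that fit could not overturn their calls. The Htr7 calls among the 12 in rES passage 6 and passage 30 against ESC share this limit. The number of genes called from MM401 day 3 to P2 (6) was 3 with the 4 libraries compared alone, where 7 of the 10 passed the filter, and 3 without the EpiSC libraries, where 5 passed. From rES passage 6 to passage 30 (3) it was 1 with the 4 libraries alone, where 2 passed, and ran from 1 to 2 with a library left out. Against ESC it was 5 in MM401 day 3 (8) and 4 in MM401 P2 (7) without the EpiSC libraries; 5 genes were tested in these fits, and Actc1 in MM401 P2 lost its call there at -0.47. Signs turned for Jakmip2 from day 3 to P2, from -1.03 to 2.57 with a library left out, and for Car2 on removal of MM401, from -0.84 to 0.02 with a library left out. Counts thinned to the shallowest library lost 5 calls: Shisa3 (3.71) and Jakmip2 (1.66) from day 3 to P2, Vrtn from P2 to rES passage 6 (-1.13), and Htr7 (-1.12) and Npbwr1 (-0.91) in day 3 against ESC. The 4 libraries compared alone lost Kcnj3 from day 3 to P2 (1.58) and Ano5 in P2 against ESC (1.24). DESeq2 lost Kcnj3 and Jakmip2 from day 3 to P2, and Ano5 in rES without MM401 against ESC. Same-numbered libraries did not deviate together (correlations of -0.052 to 0.052 over 21 pairs of groups), so the numbers do not pair them, and with a replicate block the counts of genes called were unchanged in all 9 comparisons (6 genes from day 3 to P2). Of the 8 genes most like the members, 6 were shared with a prior count of 0.5 and 7 with a minimum of 1 CPM. The limit is depth: outside EpiSC, Htr7, Npbwr1, Kcnj3, Jakmip2 and Ano5 had at most 45 reads in a library.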
